A study of Arabidopsis thaliana with 11 samples.

Results

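The genes that make and export the cuticle, the layer of cutin and wax on the outer face of the epidermis, were followed in sorted cells of the stomatal lineage of Arabidopsis. The 44 genes were listed by locus code and annotated role, and all 44 were found in the deposited table of 33602 genes. Expression had been measured by RNA sequencing in protoplasts released from shoots of 10-day-old seedlings of the Columbia background and sorted by fluorescence. The 11 libraries came from 5 marker lines, and every line carried its own reporter, so no line without one was included. ML1Y (ML1p::YFP-RCI2A) labels the whole epidermis (n = 2). SSY (SPCHp::SPCH-YFP) was sorted for meristemoid mother cells and young meristemoids (n = 3), and MG (MUTEp::nucGFP) for late meristemoids and young guard mother cells (n = 2). FGF (FAMAp::GFP-FAMA) was sorted for guard mother cells that have matured and the youngest guard cells (n = 2), and the enhancer trap line E1728G (E1728::GFP) for mature guard cells (n = 2). SSY and FGF carry fusions with the coding sequence of a stomatal regulator, so their cells hold an added copy of it, and the labels do not say which genes lie near the E1728 insertion. Nothing states whether the replicates came from separate sowings, so the p-values measure the spread between these libraries, which may be technical.

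Cutin is a polyester of hydroxylated fatty acids and glycerol. Its monomers are made in the endoplasmic reticulum by CYP86A and CYP77A hydroxylases, LACS acyl-CoA synthetases and GPAT acyltransferases, and leave the cell through ABCG transporters. Wax arises when a fatty acid elongase, built from a KCS condensing enzyme, KCR1, PAS2 and CER10, lengthens acyl chains that the CER enzymes, MAH1 and WSD1 turn into alkanes, alcohols, ketones and esters. SHN factors of the AP2/ERF family and several MYB factors act upstream. Guard cells carry thick cuticle and cuticular ledges around the pore, and plants that lack both GPAT4 and GPAT8 form defective ledges.

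The values are log2-scale normalized expression as the authors deposited them. A gene entered the tests when 2 to the power of its value reached 10 in at least 2 libraries, and all 44 members did, among 29850 genes tested. Group levels are mean ± SD of the libraries. Differences were tested with limma-trend over all tested genes, with Benjamini-Hochberg adjustment at 0.05, two-sided, and are given ± the standard error of that fit. Read depth cannot be read from these values, levels are not corrected for gene length, and levels of different genes are not compared. In bulk samples, fewer cells of a type and less RNA per cell cannot be told apart.

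The sorts were read against marker genes of the cells they could hold. MUTE had its highest group mean in MG (8.75 ± 1.57, n = 2) and FAMA in FGF (14.47 ± 0.62, n = 2), whereas SPCH was lowest in SSY (5.58 ± 0.50, n = 3). FGF carries a fusion with FAMA and SSY a fusion with SPCH. Reads of the fusion and of the native gene cannot be told apart in these values, so the FAMA level in FGF is no independent check of that sort. The mean of FAMA in SSY was 11.55, above ML1Y (8.59, limma adjusted p = 0.0317), beside 10.21 in MG and 11.24 in E1728G. The guard cell marker GC1 was at 7.48 in SSY and 4.36 in MG (limma adjusted p = 0.0274), so SPCH, FAMA and GC1 went against the early stage on the SSY label. The rest of the lineage list was mixed. Means in SSY and MG were 9.57 and 12.49 for TMM, with 8.32 in ML1Y, and 4.87 and 8.75 for MUTE. They were 5.64 and 6.28 for KAT1, 8.73 and 9.28 for SLAC1, and 7.79 and 7.64 for MYB60. All 8 mesophyll markers were lower in each lineage sort than in ML1Y, and their summed level was 18.15 to 18.48 log2 units in ML1Y, 13.80 to 14.80 in SSY, 13.32 to 13.63 in MG, 13.68 to 13.69 in FGF and 13.92 to 13.95 in E1728G. The 4 epidermal markers (ATML1, PDF2, PDF1 and HDG2) summed to 10.23 to 10.31 in ML1Y, 10.87 to 12.63 in SSY, 11.83 to 12.65 in MG, 10.38 to 10.52 in FGF and 9.66 to 9.97 in E1728G, and no marker of either list stood at 0. The 5 trichome markers summed to 8.65, 8.36 and 10.28 in SSY, 7.29 to 8.06 in MG and 7.41 to 7.69 in the other libraries. Of these, TTG2 read 7.89, 7.58 and 10.11 in SSY, with a mean of 8.53 against 5.41 in ML1Y (limma adjusted p = 0.012). It was the only 1 of the 5 to pass in any comparison. The 5 vascular markers summed to 8.31 and 8.53 in ML1Y and 7.34 to 8.14 in the other libraries. Of these 5, only XCP2 passed in any comparison, and it was lower in each lineage sort than in ML1Y (limma adjusted p from 0.00564 to 0.0326). Rank correlations of 2 libraries ran from 0.76 to 0.95 over all pairs. The SSY libraries varied most within their group. Their root mean square deviation from the group mean over all tested genes was 0.89 to 0.92 log2 units, against 0.46 to 0.74 in the other groups.

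MG, the sort of late meristemoids and young guard mother cells, held the highest group mean for more of the 44 genes than any other sort. It did so for 20 (45.5%), compared with 18.4% of all tested genes. E1728G held the highest mean of 10 members (22.7%, against 16.2% of all genes) and SSY of 8 (18.2%, against 30.2%). FGF held that of 4 (9.09%, against 15.2%) and ML1Y of 2 (4.55%, against 20%). In ML1Y 17 members (38.6%, against 22.4% of all genes) had their lowest mean. The 20 members with the peak in MG comprised all 4 lipid transfer members, both cutin assembly members, 3 of 4 acyltransferases, 2 of 3 transporters, 2 of 3 genes of acyl activation, 2 of 5 hydroxylases, 2 of 7 regulators, 2 of 11 elongation genes and 1 of 5 wax-modifying genes. Lipid transfer genes outside the members had their highest mean elsewhere, in ML1Y (LTPG5, LTPG6 and LTP4), SSY (LTP3) or E1728G (LTP5, and LTP6 below the filter). Of BDG3, CUS1 and CUS2, also outside the members, the highest mean was in FGF, SSY and MG in turn. The number of members with the highest mean in MG was 16 without MG replicate 1 and 24 without MG replicate 2. All 4 epidermal markers likewise had their highest mean in MG, and PDF1 was lower in E1728G than in MG (6.55 against 10.61, limma adjusted p = 0.0477). Their part in the pattern was not tested.

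**Figure D1:**
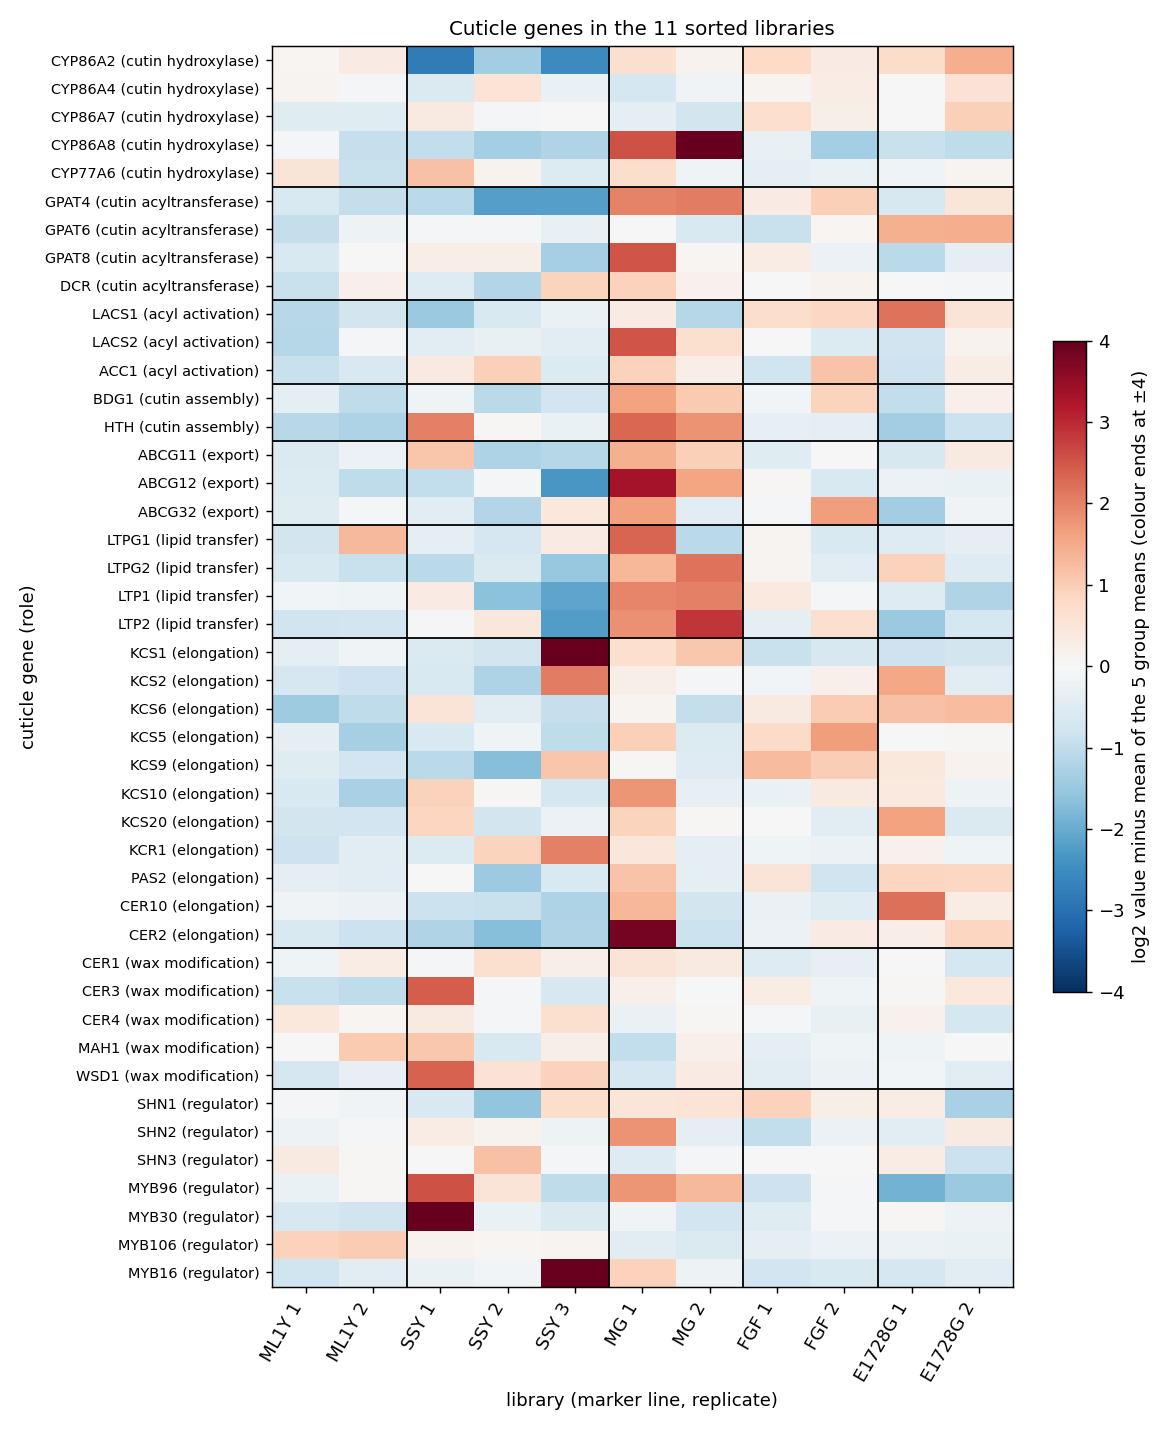
Log2 expression of the 44 cuticle genes (rows, grouped by role) in the 11 libraries (columns), each as the difference from the mean of that gene's 5 group means, with red for higher and blue for lower. The 2 MG columns are red across the cutin assembly, transport and lipid transfer genes, except for ABCG32 and LTPG1, which are blue in MG replicate 2. Single dark cells in SSY mark MYB30 in replicate 1 and KCS1 and MYB16 in replicate 3.

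Set against ML1Y, the median log2 difference of the 44 members was 0.14 in SSY, 0.87 in MG, 0.39 in FGF and 0.30 in E1728G, beside medians of 0.03 to 0.06 over all tested genes. These comparisons share the ML1Y libraries. Mesophyll markers were highest in ML1Y, against its label of whole epidermis. Summed epidermal markers were higher in SSY, MG and FGF than in ML1Y and lower in E1728G. A difference in cell composition from ML1Y and one in expression cannot be told apart. In MG 38 of 44 differences were positive (86.4%, against 52.0% of all genes). The median in MG was 0.35 without MG replicate 1 and 1.52 without MG replicate 2, and the members were above the ML1Y mean in 38 cases in MG replicate 1 and in 29 in MG replicate 2. Against SSY the MG median was 0.64, or 0.05 without MG replicate 1 and 1.104 without MG replicate 2. From MG to FGF the median was -0.56 (-0.07 without MG replicate 1 and -0.99 without MG replicate 2). From MG to E1728G it was -0.60 (-0.19 without MG replicate 1 and -0.95 without MG replicate 2). Between FGF and E1728G 25 differences were positive and 19 negative, with a median of 0.05.

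**Figure D2:**
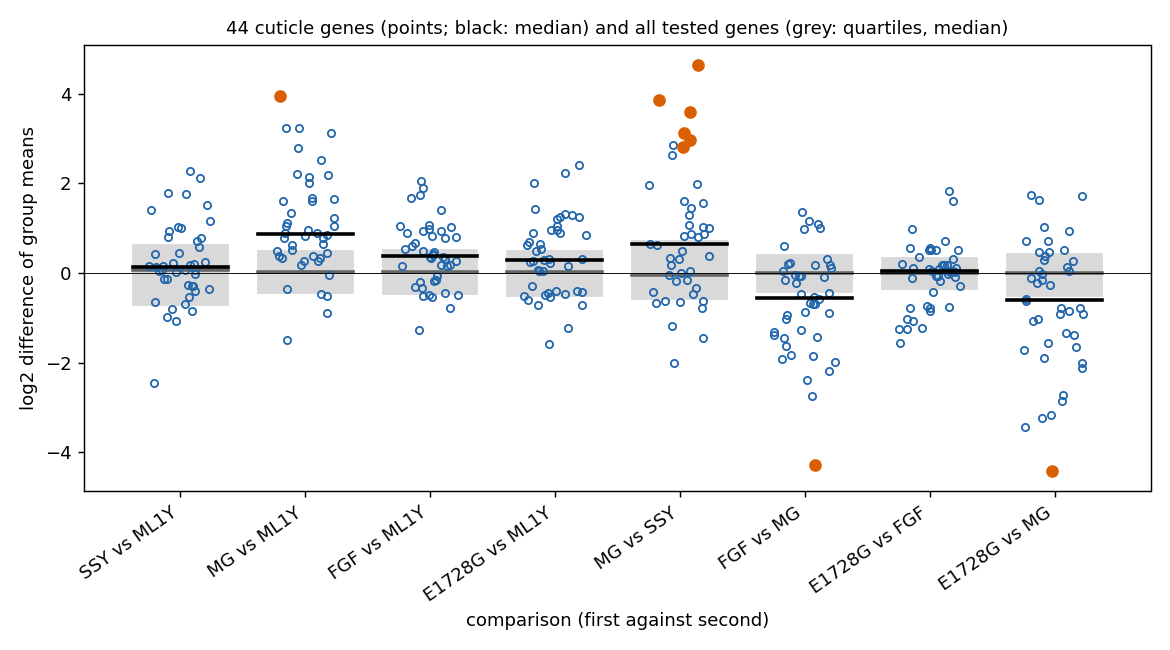
Log2 difference of group means for each of the 44 cuticle genes (points, with filled orange points past the threshold and the black line at their median) in the 8 comparisons, over the quartiles and median of all 29850 tested genes (grey). The members' median lies above that of all genes for MG against ML1Y (0.87) and MG against SSY (0.64), and below it for FGF against MG (-0.56) and E1728G against MG (-0.60).

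Single genes passed the threshold where MG was one side of the comparison. Against SSY 6 of 44 members were higher in MG (13.6%, with 1.75% of all tested genes called higher) and 0 were lower (0.375% of all genes called lower), where 11 members had an unadjusted p under 0.05. Against ML1Y 1 member was higher (0.188% of all genes called higher). From MG to FGF 1 fell (0.0771% of all genes called lower), and from MG to E1728G 1 fell (0.251% called lower). No member passed limma-trend for SSY against ML1Y (5.55% of all genes called in either direction, 4 members at an unadjusted p under 0.05), FGF against ML1Y (2.11% called, 3 members), E1728G against ML1Y (2.44% called, 4 members) or E1728G against FGF (0.0101% called, 1 member). An F test over the 5 groups called CYP86A8, GPAT4 and CYP86A2, 3 of 44, a share close to the 6.21% of all tested genes it called.

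CYP86A8 (AT2G45970), a fatty acid omega-hydroxylase of cutin synthesis also known as LACERATA, was the member with the largest change. It stood at 9.13 and 10.96 in the MG libraries, at 6.52 and 5.65 in ML1Y, at 5.59, 5.23 and 5.38 in SSY, at 6.28 and 5.23 in FGF, and at 5.70 and 5.57 in E1728G. Both MG values lay above the 9 others, which ran from 5.23 to 6.52. MG exceeded ML1Y 15.5-fold (log2 difference 3.96 ± 0.67, limma adjusted p = 0.00785) and SSY 25.0-fold (4.64 ± 0.61, adjusted p = 0.00511). Expression then fell by 4.29 ± 0.67 on the log2 scale from MG to FGF (adjusted p = 0.0253) and by 4.41 ± 0.67 from MG to E1728G (adjusted p = 0.0113). The difference from SSY passed in 11 of 11 fits that left out a library. The difference from ML1Y ended without ML1Y replicate 2 or MG replicate 2, that from E1728G without MG replicate 2 or E1728G replicate 1, and that from FGF in 5 of the 11 (without a library of ML1Y or FGF, or MG replicate 2). All 4 calls ended when the 2 groups compared were fitted alone, and that between FGF and MG also under quantile normalization.

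The other omega-hydroxylases did not share this profile. CYP86A2 (AT4G00360), known as ATT1 and named for a mutant with altered cutin, read 6.69, 8.10 and 6.94 in SSY. It read 9.58 and 9.82 in ML1Y, 10.14 and 9.62 in MG, 10.29 and 9.84 in FGF, and 10.22 and 10.95 in E1728G. All 3 SSY libraries lay below the 8 others. It passed the F test (adjusted p = 0.0322) but no comparison of a pair, with log2 differences of -2.46 ± 0.70 for SSY against ML1Y (limma adjusted p = 0.0544) and 2.64 ± 0.70 for MG against SSY (limma adjusted p = 0.0638), and the F call held in 3 of 11 fits without a library (without SSY replicate 2 or either MG library) and ended under quantile normalization. The antisense neighbour AT4G00370 overlaps CYP86A2 in the annotation and had a mean of 6.32 in SSY and of 7.13 to 8.30 in the other groups. Whether reads were counted by strand is not stated, so reads of such pairs cannot be told apart. CYP86A4 and CYP86A7 ranged over 0.71 and 1.02 log2 units between the highest and lowest group mean, and CYP77A6, the in-chain hydroxylase of floral cutin, over 0.59. Their group means lay between 3.72 (CYP86A7 in MG) and 5.11 (CYP86A4 in E1728G), low values but above the filter of 3.32 log2 units.

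**Figure D3:**
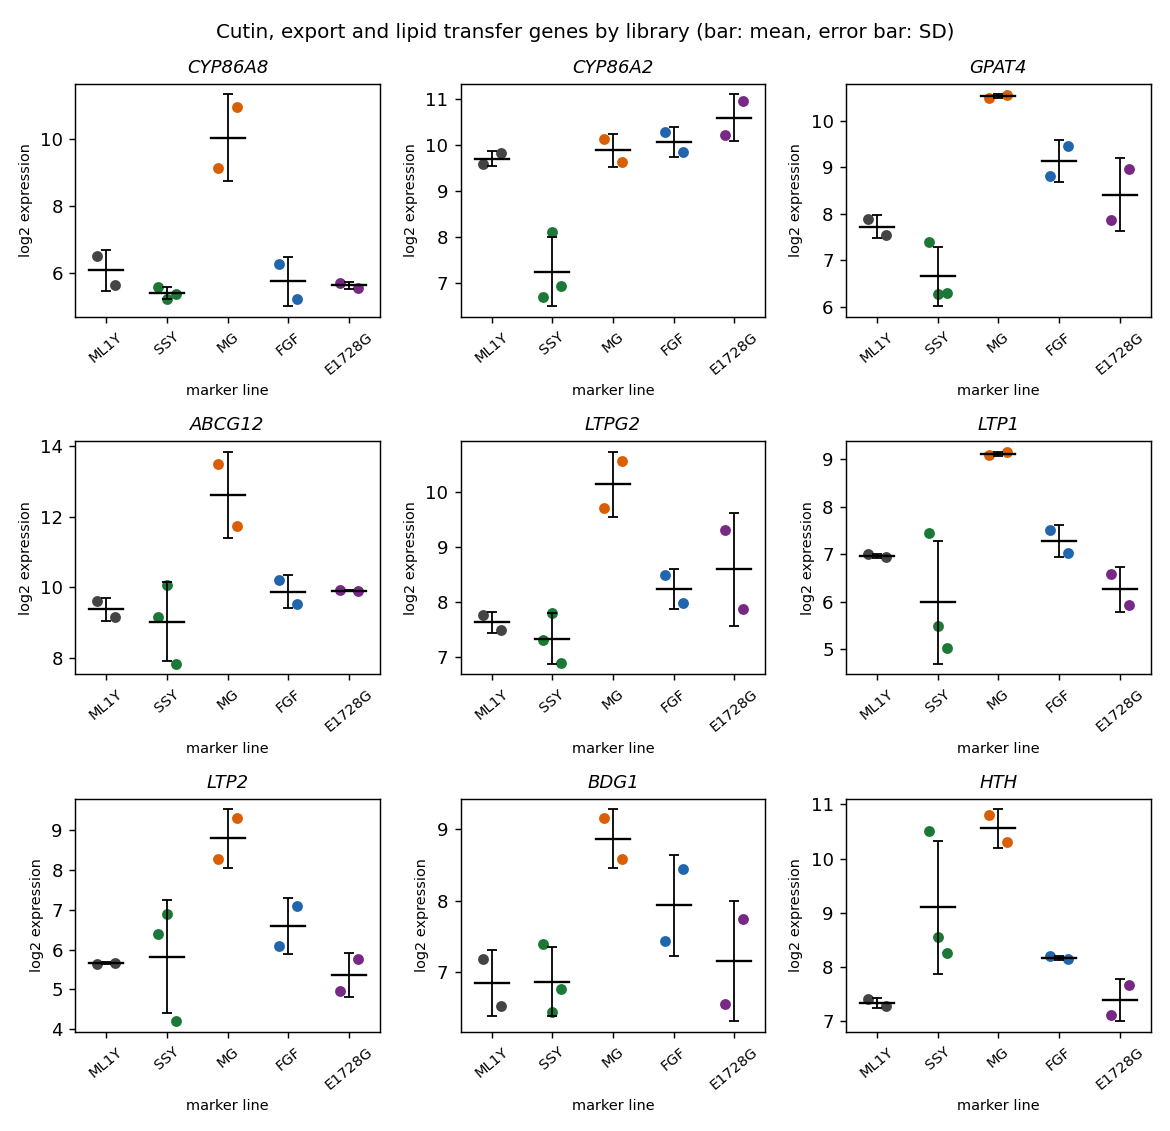
Log2 expression of 9 cutin, transport and lipid transfer genes by marker line, with a point per library, the group mean as a bar and the SD as an error bar (n = 3 in SSY and 2 elsewhere). CYP86A8, GPAT4, ABCG12, LTPG2, LTP1, LTP2 and BDG1 have both MG libraries above all 9 others, and CYP86A2 is low in the 3 SSY libraries. The share of all tested genes with both MG libraries highest was not computed.

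Among the glycerol-3-phosphate acyltransferases, which join the oxidised acyl chain to glycerol, GPAT4 (AT1G01610) was tightly measured in MG. Its values were 10.49 and 10.55 in MG, 8.82 and 9.46 in FGF, 7.86 and 8.97 in E1728G, 7.90 and 7.55 in ML1Y, and 7.40, 6.28 and 6.29 in SSY. MG lay above all other libraries, and SSY below them. MG exceeded SSY 14.5-fold (log2 difference 3.86 ± 0.66, limma adjusted p = 0.0141), which ended without MG replicate 2, and the F test also called it (adjusted p = 0.0192; lost without either ML1Y library or MG replicate 2). The difference from SSY also ended when those 2 groups were fitted alone. The log2 difference from ML1Y, 2.80 ± 0.73, missed the threshold (limma adjusted p = 0.0783). GPAT8, its close relative, read 9.26 and 6.82 in MG and 5.43 to 7.04 elsewhere. GPAT6, whose product is best known from flower cutin, instead had its highest values in E1728G, at 7.01 and 7.06 against 4.63 to 5.69 in the 9 other libraries, a log2 difference of 2.01 ± 0.51 from ML1Y that missed the threshold (limma adjusted p = 0.0541). DCR, an acyltransferase of the BAHD family needed for cutin, had group means of 6.71 to 7.60. So within the acyltransferases the highest mean was in MG for GPAT4, GPAT8 and DCR and in E1728G for GPAT6.

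Of 3 genes of acyl activation and 2 of cutin assembly, 0 passed limma-trend in any comparison, and 2 of each kind had an unadjusted p under 0.05 in at least 1. LACS1, a long-chain acyl-CoA synthetase of wax and cutin synthesis, had group means of 7.50 ± 0.27 in ML1Y (n = 2), 7.63 ± 0.62 in SSY (n = 3), 8.01 ± 1.03 in MG (n = 2), 9.18 ± 0.07 in FGF (n = 2) and 9.74 ± 1.17 in E1728G (n = 2), and both its FGF and E1728G libraries lay above all of the rest. LACS2, its counterpart in cutin synthesis, was at 9.58 and 7.71 in MG and at 5.93 to 7.21 elsewhere. ACC1, the cytosolic acetyl-CoA carboxylase that supplies malonyl-CoA for elongation, had means from 10.60 in ML1Y to 11.94 in MG. HTH, an oxidoreductase thought to form dicarboxylic acids for cutin, read 10.81 and 10.31 in MG and 10.51 in SSY replicate 1, and 7.10 to 8.54 in the other 8 libraries. Its log2 difference of 3.23 ± 0.81 between MG and ML1Y missed the threshold (limma adjusted p = 0.0661). BDG1, an extracellular alpha/beta hydrolase of cuticle formation, read 9.15 and 8.58 in MG and 6.45 to 8.44 elsewhere. BDG1 overlaps the antisense gene AT1G64660, which was lowest in MG (7.08) and highest in E1728G (10.68).

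The export genes differed in profile. ABCG12 (AT1G51500), a wax transporter also known as CER5, read 13.49 and 11.75 in MG. It read 9.61 and 9.15 in ML1Y, 9.17, 10.08 and 7.83 in SSY, 10.21 and 9.54 in FGF, and 9.92 and 9.89 in E1728G, so MG did not overlap any other group. The excess over SSY was 12.1-fold (log2 difference 3.59 ± 0.82, limma adjusted p = 0.0373), and it passed in 2 of 11 fits without a library (without SSY replicate 1 or SSY replicate 2) and ended under quantile normalization and with the 2 groups alone. ABCG11, which pairs with itself or with ABCG12 to export cutin and wax, had its highest mean in MG (11.41 ± 0.34, n = 2), but SSY replicate 1 was at 11.33. ABCG32, a transporter of cutin precursors, was high in 1 library each of MG (11.04) and FGF (11.06) and at 8.01 to 9.82 in the rest.

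Of the lipid transfer proteins among the members, secreted or membrane-anchored carriers of acyl lipids in the cell wall, 3 of 4 were higher in MG than in SSY. LTPG2 (AT3G43720), which is held to the plasma membrane by a GPI anchor, read 9.72 and 10.57 in MG, 7.31, 7.80 and 6.88 in SSY, 7.76 and 7.49 in ML1Y, 8.49 and 7.98 in FGF, and 9.32 and 7.86 in E1728G. LTP1 (AT2G38540) read 9.08 and 9.15 in MG, 7.45, 5.48 and 5.02 in SSY, 7.00 and 6.94 in ML1Y, 7.51 and 7.03 in FGF, and 6.59 and 5.92 in E1728G. LTP2 (AT2G38530) read 8.27 and 9.31 in MG, 6.39, 6.89 and 4.20 in SSY, 5.65 and 5.67 in ML1Y, 6.10 and 7.10 in FGF, and 4.97 and 5.76 in E1728G. For each of the 3 genes, both MG libraries lay above all 9 others. MG exceeded SSY 7.03-fold for LTPG2 (limma adjusted p = 0.0463), 8.77-fold for LTP1 (limma adjusted p = 0.0317) and 7.81-fold for LTP2 (limma adjusted p = 0.0490). These calls lie near the threshold: they passed in 0 (LTPG2), 5 (LTP1) and 1 (LTP2) of the 11 fits that left out a library. LTP1 lost its call without either library of ML1Y or MG or without SSY replicate 2 or 3, and LTP2 without any library other than SSY replicate 2. All 3 calls ended under quantile normalization and with the 2 groups alone, and that of LTP2 also without the filter on low values. LTP1 and LTP2 are close relatives, and a sharing of reads by the pair was not tested. LTPG1, the second anchored protein, had the widest spread in MG (12.90 and 9.49) and also reached 11.86 in ML1Y replicate 2.

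The promoters of 5 members are described here, and 4 are shown: that of CYP86A8, which the results turn on, and those of 3 members with their highest mean in MG whose window holds an L1 box. The L1 box is the site of HD-ZIP IV homeodomain factors such as ATML1, and was searched as TAAATGCA and TAAATGTA on both strands in the 250 bases before the gene start of the RefSeq annotation, on its build TAIR10.1. Of the 44 members 4 held it (9.09%: ABCG11, KCS9, KCS10 and MYB96), compared with 4.49% of 27443 protein-coding genes. KCS9, which is not shown, had its highest mean in FGF (9.24, with 7.88 in MG). None of these 4 passed limma-trend in any comparison, and a link between the box and the level in MG was not tested. The GCC box GCCGCC, a site bound by ERF factors, was in 1 member, GPAT6 (2.27%, against 1.87% of all). Capitals mark the L1 box. The CYP86A8 window (chr2:18914740-18914989 (minus strand)) holds no match to either word. That of ABCG11 (chr1:6142152-6142401 (plus strand)) holds matches starting 82 and 47 bases before the gene start, that of KCS10 (chr2:11173279-11173528 (minus strand)) a match at 54 bases and that of MYB96 (chr5:25081142-25081391 (minus strand)) a match at 24 bases. A match is a description of the letters and not a measured site.
CYP86A8: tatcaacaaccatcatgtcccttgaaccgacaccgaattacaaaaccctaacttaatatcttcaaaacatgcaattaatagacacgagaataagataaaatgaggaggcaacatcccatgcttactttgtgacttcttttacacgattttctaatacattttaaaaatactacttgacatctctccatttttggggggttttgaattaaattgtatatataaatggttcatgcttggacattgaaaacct
ABCG11: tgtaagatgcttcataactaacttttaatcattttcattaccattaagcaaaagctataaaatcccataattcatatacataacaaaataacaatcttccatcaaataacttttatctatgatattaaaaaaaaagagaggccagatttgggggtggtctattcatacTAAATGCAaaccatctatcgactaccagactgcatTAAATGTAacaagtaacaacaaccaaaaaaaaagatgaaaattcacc
KCS10: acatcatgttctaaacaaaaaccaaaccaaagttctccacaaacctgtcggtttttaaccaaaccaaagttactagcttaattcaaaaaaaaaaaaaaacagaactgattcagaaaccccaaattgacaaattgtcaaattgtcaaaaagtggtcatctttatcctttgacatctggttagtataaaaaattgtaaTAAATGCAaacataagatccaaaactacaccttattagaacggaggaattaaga
MYB96: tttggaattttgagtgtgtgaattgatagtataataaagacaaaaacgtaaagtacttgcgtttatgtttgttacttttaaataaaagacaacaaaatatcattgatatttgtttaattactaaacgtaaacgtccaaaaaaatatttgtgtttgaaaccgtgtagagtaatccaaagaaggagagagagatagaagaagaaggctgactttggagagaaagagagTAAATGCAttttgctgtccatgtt

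Elongation genes had another distribution, and 0 of 11 passed limma-trend in any comparison (3 had an unadjusted p under 0.05 in at least 1). All 11 had a positive difference from ML1Y in MG (median 0.85), 10 in E1728G (median 1.25), 9 in FGF (median 0.79) and 8 in SSY (median 0.72). KCS6 (AT1G68530), the main condensing enzyme of leaf and stem wax, also called CUT1 and CER6, had its highest values in the guard cell sort. Its group means were 10.33 ± 0.28 in ML1Y (n = 2), 11.26 ± 0.73 in SSY (n = 3), 11.12 ± 0.76 in MG (n = 2), 12.23 ± 0.45 in FGF (n = 2) and 12.75 ± 0.04 in E1728G (n = 2). The 2 E1728G libraries lay above all others, and the log2 difference from ML1Y of 2.42 ± 0.79 missed the threshold (limma adjusted p = 0.151). KCS5, the closest relative of KCS6, and KCS9 peaked in FGF, at 7.73 ± 0.65 and 9.24 ± 0.19 (n = 2 each). KCS10, known as FIDDLEHEAD and needed to keep epidermal organs from fusing, had its highest mean in MG (11.73 ± 1.48, n = 2). KCS20 had means of 11.51 in ML1Y to 12.77 in E1728G, where the libraries read 13.86 and 11.68.

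For several elongation genes 1 library set the group mean. KCS1 stood at 16.83 in SSY replicate 3 and at 11.88 to 13.82 in the 10 others, and KCS2 at 10.44 in the same library and at 7.17 to 9.95 in the others. CER2, a protein of the BAHD family that lets the elongase make the longest chains, stood at 10.90 in MG replicate 1 and at 5.37 to 7.94 in the others, so its highest mean in MG rests on that library. Of the subunits that all elongases share, KCR1, the ketoacyl-CoA reductase, had group means of 8.04 to 9.45, PAS2, the dehydratase, of 6.16 to 7.69, and CER10, the enoyl-CoA reductase, of 6.20 to 8.44. PAS2 and CER10 had their highest mean in E1728G and their lowest in SSY. For CER10 the highest mean rests on E1728G replicate 1 (9.40), with 7.48 in E1728G replicate 2 and 8.53 in MG replicate 1.

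**Figure D4:**
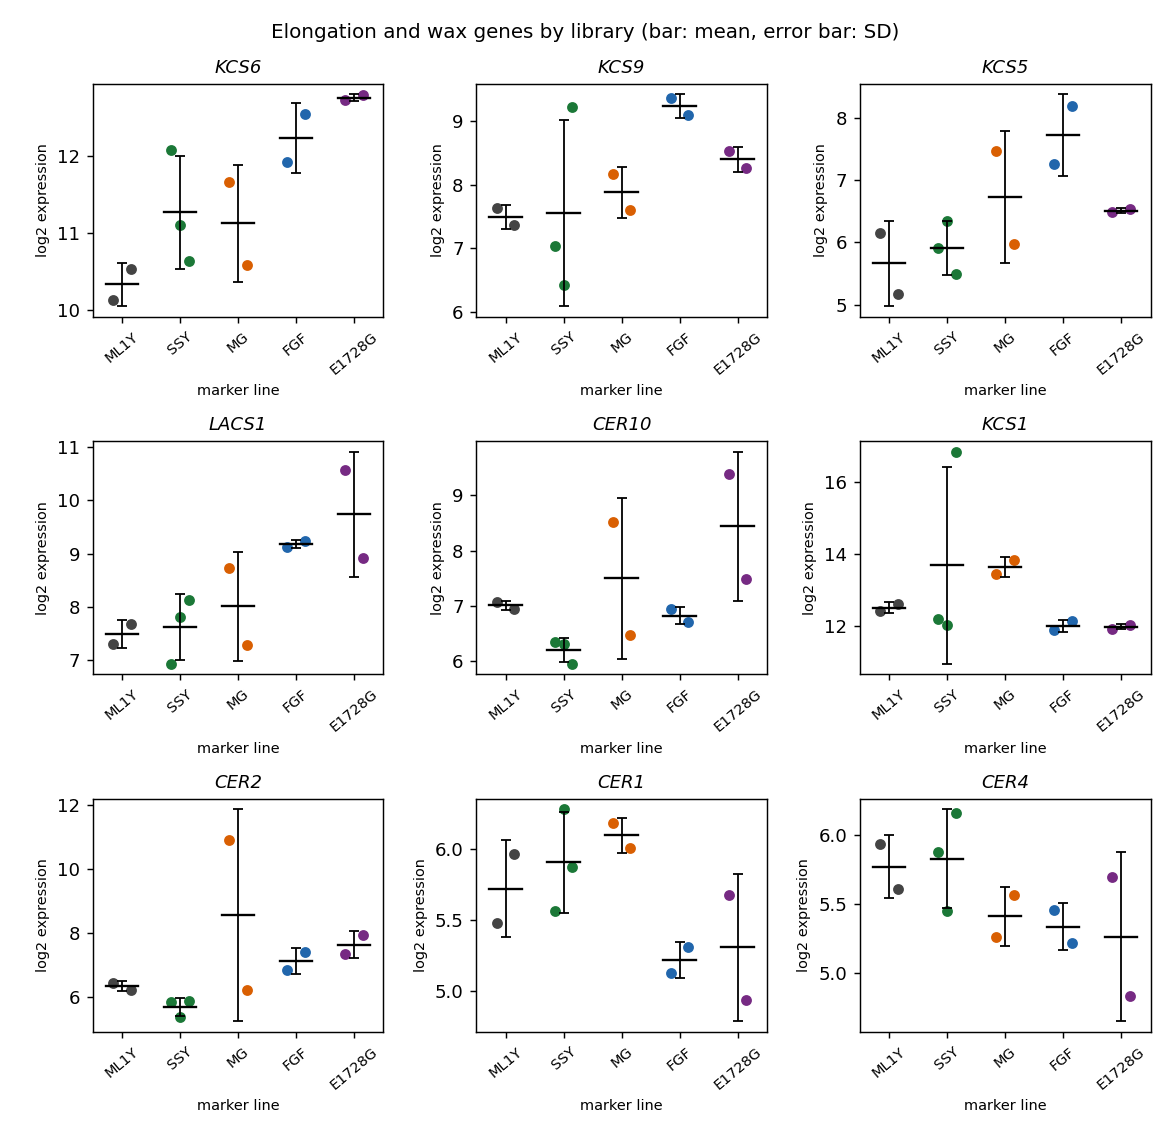
Log2 expression of 9 genes of acyl activation, elongation and wax modification by marker line, with a point per library, the group mean as a bar and the SD as an error bar (n = 3 in SSY and 2 elsewhere). KCS6, KCS9, KCS5 and LACS1 have their highest means in FGF or E1728G, and KCS1 and CER2 each have a single library far above the rest, at 16.83 and 10.90.

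Of the 5 enzymes that turn elongated chains into wax, 0 passed limma-trend in any comparison (1 at an unadjusted p under 0.05). CER1, which forms alkanes together with CER3, ranged over 0.87 log2 units between group means, from 5.22 in FGF to 6.09 in MG. CER4, the reductase that makes primary alcohols, ranged over 0.57, and MAH1, the mid-chain alkane hydroxylase of secondary alcohols and ketones, over 0.89. CER3 had a mean of 11.92 ± 1.63 in SSY (n = 3), set by replicate 1 at 13.77, and of 10.39 ± 0.09 in ML1Y (n = 2). WSD1, the wax ester synthase, was at 7.32, 5.54 and 5.90 in SSY and at 4.29 to 5.29 in the 8 other libraries, which did not overlap. Its log2 difference from ML1Y of 1.78 ± 0.53 missed the threshold (limma adjusted p = 0.0668).

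Of the 7 regulators 0 passed limma-trend in any comparison (2 had an unadjusted p under 0.05 in at least 1). MYB96, a factor that raises wax synthesis under drought, read 11.03 and 11.35 in ML1Y, 13.86, 11.81 and 10.28 in SSY, 13.08 and 12.61 in MG, 10.48 and 11.26 in FGF, and 9.42 and 9.80 in E1728G. The E1728G libraries lay below all others, and the log2 difference between E1728G and MG was -3.23 ± 0.99 (limma adjusted p = 0.183). MYB30, an activator of very-long-chain fatty acid genes in the hypersensitive response, read 18.91 in SSY replicate 1, 13.17 and 12.85 in the other SSY libraries, 12.77 and 12.61 in ML1Y, 13.27 and 12.65 in MG, 12.93 and 13.38 in FGF, and 13.46 and 13.21 in E1728G. MYB16, a MIXTA-like factor of the cuticle and of petal cell shape, read 10.59 in SSY replicate 3, 5.45 and 5.60 in the other SSY libraries, 4.91 and 5.26 in ML1Y, 6.61 and 5.48 in MG, 4.94 and 5.08 in FGF, and 5.03 and 5.24 in E1728G. Both MYB30 and MYB16 were thus far higher in a single library than in the 10 others.

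MYB106, the relative of MYB16 that also limits trichome branching, read 5.79 and 5.88 in ML1Y, 5.02, 4.94 and 4.98 in SSY, 4.41 and 4.29 in MG, 4.51 and 4.62 in FGF, and 4.63 and 4.59 in E1728G. It was the member with the highest mean in ML1Y among the regulators, with no overlap between ML1Y and the lineage sorts, and the log2 difference of MG from ML1Y was -1.48 ± 0.41 (limma adjusted p = 0.1). The SHN factors, AP2/ERF activators of cutin genes, were low throughout. SHN1 read 2.96 and 2.86 in ML1Y, 2.41, 1.42 and 3.71 in SSY, 3.49 and 3.57 in MG, 3.93 and 3.24 in FGF, and 3.29 and 1.71 in E1728G. SHN2 read 3.58 and 3.72 in ML1Y, 4.06, 3.91 and 3.57 in SSY, 5.57 and 3.40 in MG, 2.77 and 3.55 in FGF, and 3.30 and 4.12 in E1728G. SHN3 read 4.12 and 3.83 in ML1Y, 3.76, 4.94 and 3.71 in SSY, 3.25 and 3.68 in MG, 3.79 and 3.79 in FGF, and 4.09 and 2.93 in E1728G. Values of the SHN genes thus lay on both sides of the filter of 3.32 log2 units, and no SHN gene set a group clear of all others.

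**Figure D5:**
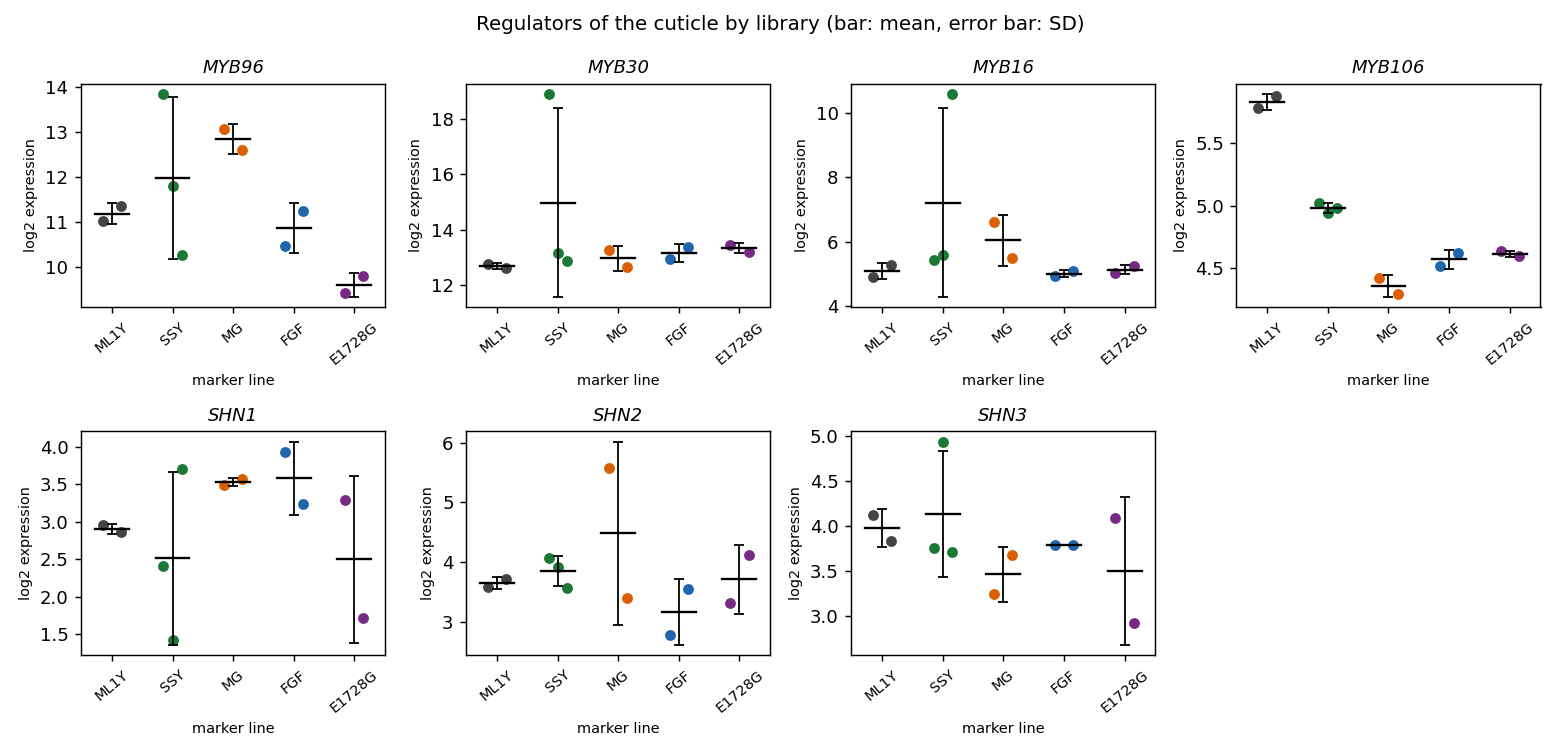
Log2 expression of the 7 cuticle regulators by marker line, with a point per library, the group mean as a bar and the SD as an error bar (n = 3 in SSY and 2 elsewhere). MYB96 is lowest in E1728G, MYB106 highest in ML1Y, and MYB30 and MYB16 are each set apart by 1 SSY library, at 18.91 and 10.59.

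Other genes of the same pathway were taken from a list of 32 cuticle genes and 9 suberin genes. Of the 31 and 9 that passed the filter, 0 passed limma-trend in either direction in any of the 8 comparisons (12 and 5 had an unadjusted p under 0.05 in at least 1). Their median log2 difference between MG and ML1Y was 0.07 for the cuticle genes and -0.17 for the suberin genes, beside 0.87 for the 44 members. Between MG and SSY the medians were 0.12 and -0.25, beside 0.64. Of the members' 44 genes, 9 overlap an antisense gene in the annotation (ABCG11, BDG1, CER10, CER2, CYP86A2, KCS2, LTPG1, MYB106 and SHN2).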

How the data were processed

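Protoplasts sorted from 5 marker lines gave 11 RNA sequencing libraries. The authors deposited 1 table of normalized expression values on a log2 scale, with a column for each library. Per the submitters' processing notes, Bowtie2 and DESeq2 were used with the build TAIR10. The counter, the annotation, the strand setting and the transformation were not given in the sources used here. That the log base is 2 was inferred from the size of the values. If the transformation pulls low values together, differences of weakly expressed genes are understated. Depth is unknown, so no counting interval is given.

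Every column matched 1 sample by name, 2 genes without values were left out, and 29850 of 33602 genes passed the filter. Group means of all 11 libraries were fitted at once with limma-trend (limma 3.58.1, R 4.3.3), tested on simulated data with known changes. A gene's spread is shared by all groups, so errors are too small for groups that vary more. The 4 comparisons with ML1Y share its libraries. The members, lists and naming rule were chosen with earlier results of these data known. Values in every library are given for members that passed a test and for the regulators. Those given for other members were chosen after their values were seen. Gene names come from the RefSeq annotation of TAIR10.1. The deposited table holds no coordinates, so those printed belong to that build alone. Alternatives were no filter, 1 added on the linear scale, quantile normalization, a replicate block, fits of the compared groups alone, and leaving out each library.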

Additional observations from a re-analysis of the deposited data

How the results depend on the processing

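No difference of a member that passed changed direction under any alternative. The number of members past the threshold was 6 for MG against SSY, 2 under quantile normalization (CYP86A8 and GPAT4), and 0 with the 2 groups alone, and for FGF against MG it was 1, 0 under quantile normalization and 0 with the 2 groups alone. With the 2 groups alone it was also 2 for MG against ML1Y (HTH and LTP2), 1 for E1728G against ML1Y (KCS6) and 0 for E1728G against MG. Without the filter, SSY against ML1Y had 1 (CYP86A2). When single libraries were left out, it ran from 0 to 2 for SSY against ML1Y, from 0 to 3 for MG against ML1Y, from 2 to 5 for MG against SSY, from 0 to 1 for FGF against MG, from 0 to 3 for E1728G against MG and from 1 to 4 for the F test, and the cause was not tested. The number of members with the highest mean in MG was 22 under quantile normalization, an alternative chosen after seeing the data, as were the others of this number and of the medians. Same-numbered replicates of different groups showed no shared deviation: 0 of 20 correlations of their deviations exceeded 0.1 (-0.08 to 0.03). In groups of 2 libraries the deviations mirror each other, so correlations between such groups repeat and the 20 are not independent. With the replicate block the number was 2 for MG against ML1Y, 2 for MG against SSY, 0 for FGF against MG and 2 for E1728G against MG. The calls of ABCG12, LTPG2, LTP1 and LTP2 against SSY, of CYP86A8 between FGF and MG, and of CYP86A2 and GPAT4 in the F test then ended. Over all genes, MG against SSY had 634 genes past the threshold, 293 under quantile normalization, 177 with the replicate block and 2 with the 2 groups alone. FGF against MG had 41, with 20 without the filter, 1 under quantile normalization, 2 with the replicate block and 1 with the 2 groups alone. For E1728G against MG, 174 became 1 with the 2 groups alone, for SSY against ML1Y 1657 became 932, for FGF against ML1Y 629 became 1468, for E1728G against ML1Y 728 became 1193, and for E1728G against FGF 3 became 0. The F test called 1855 genes, and 1235 with the replicate block.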

Other observations

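Some members were far higher in 1 library than in all others. In 5 of 44 members (11.4%) the highest library exceeded the second by at least 2 log2 units, compared with 5.91% of all tested genes. They were MYB30 in SSY replicate 1 (gap 5.45), MYB16 (3.99) and KCS1 (3.01) in SSY replicate 3, and CER2 (2.96) and GPAT8 (2.22) in MG replicate 1. Such gaps were found in 1765 tested genes, most often in SSY, with 319 in replicate 1, 400 in replicate 2 and 311 in replicate 3. MG replicate 1 had 66 and MG replicate 2 had 296. Whether the members differ from other genes in this was not tested.

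MYB106 and the gene AT3G01142, which overlaps it on the other strand, had nearly the same values. AT3G01142 read 5.72 and 5.85 in ML1Y, 4.85, 4.79 and 4.91 in SSY, 4.16 and 4.22 in MG, 4.37 and 4.52 in FGF, and 4.50 and 4.38 in E1728G. The largest difference from MYB106 in any library was 0.25 log2 units, and the values of the pair cannot be told apart.

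Among the pathway genes outside the 44 members, PAS1, an immunophilin-like partner of the elongase, read 8.43 and 12.58 in MG, so that its highest mean (10.50) rests on MG replicate 2, with means of 7.80 to 8.63 in the other groups. DEWAX, an AP2/ERF repressor of wax genes, read 9.64, 8.81 and 5.66 in SSY and had a mean of 8.10 in MG and of 5.38 to 6.11 in ML1Y, FGF and E1728G, so SSY replicate 3 lay with the low groups. Neither gene passed in any comparison.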
